A study of Mus musculus with 55 samples.

Results

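Cortex of mice fed the CSF1 receptor inhibitor PLX5622 was compared with cortex of mice on the vehicle diet, both 30 days after traumatic brain injury (TBI). The mice were chosen by their sample titles, which give diet, injury and day: 7 mice on PLX5622 and 5 on vehicle, 12 of the 55 mice in the series. The title of 1 of the 5 vehicle mice misspells the diet, and its treatment label gives vehicle. All 12 were male C57BL/6 mice of 8 to 10 weeks at purchase. The PLX5622 group ate AIN-76A chow with 1200 mg/kg of the drug and the vehicle group ate plain AIN-76A chow, for 14 days before the injury and from then until tissue was taken. Neither group was free of injury, so the comparison is one of diet among injured mice, and mice taken later after TBI had also eaten the diet for longer. The other 43 mice were naive or were taken 1 or 7 days after TBI, on either diet.

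The measure was a nanoString nCounter panel of 799 mouse genes, which counts barcoded probes bound to RNA, with 1 library per mouse. The RNA came from pieces of frozen cortex cut out under the guidance of neighbouring sections stained for CD11b, at places where microglia were hypertrophied or rod-shaped. Itgam encodes CD11b, so its values and test results below are tied to the choice of tissue. Itgam was not taken out of the counts of called genes, list members and genes without overlap below. The choice of tissue may also bear on other microglial genes and on the comparison with naive mice, and this was not tested. At 30 days the total barcode count per mouse ran from 342217 to 858965 on PLX5622 and from 388057 to 1052388 on vehicle. The mean log2 total on PLX5622 minus that on vehicle was -0.09, with a two-sided p of 0.763 in an exact permutation test over all 792 ways to divide the mice. The 7 pan-neuronal genes summed to 15582 to 20931 normalised counts on vehicle and to 15117 to 18084 on PLX5622. In each group 1 of the 7 had a mean under 20.

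Microglia are the resident macrophages of the brain and depend on signalling through the CSF1 receptor for survival, which is why inhibitors of this receptor are used to remove them. They carry a set of surface proteins seldom made by other brain cells, such as the ADP receptor P2RY12 and the fractalkine receptor CX3CR1, and they are the main source of C1q, the protein that starts the classical complement cascade and tags synapses and debris. Astrocytes respond to injury by raising GFAP, their intermediate filament protein.

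Of the 799 genes, 21 (2.63%) passed the test at 30 days. The test was limma on log2(normalised count + 1), with the nCounter cartridge as covariate and a Benjamini-Hochberg adjusted p below 0.05. PLX5622 was lower for 20 genes (2.5%) and higher for 1 gene, Gfap (0.125%). The genes called lower included P2ry12, Csf1r, Cx3cr1, C1qc, Itgam, C1qb, C1qa, Tmem119, Fcrls, Cd33, Cd86, Ncf1, Trem2, Tgfb1, Ang, Stab1, Tgfbr1 and Il6ra, and 11 of the 20 are on the list of microglial genes. Stab1 and Ang fall outside the rule for naming genes and were named after their values were seen. In 12 genes (1.5%) every PLX5622 mouse lay below every vehicle mouse: 11 of the 20 called genes, and Abl1, which did not pass the test (log2 fold change -0.38, adjusted p = 0.124). No gene had every PLX5622 mouse above every vehicle mouse. The median log2 fold change over all 799 genes was -0.10, and centring each mouse on its median moved it to 0.04. A negative log2 fold change was found for 567 genes (71.0%), called or not, and the 20 called lower ran from -3.80 to -0.96.

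**Figure D1:**
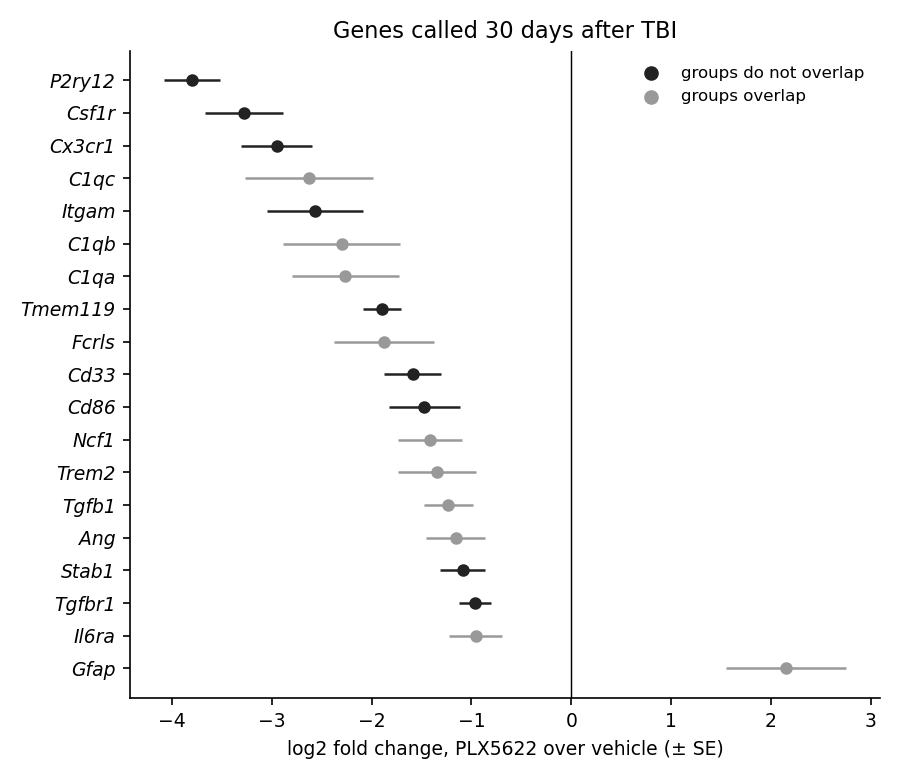
Log2 fold change of PLX5622 over vehicle 30 days after TBI (x axis, ± SE) for 19 of the 21 genes called by limma, in order of size, 7 against 5 mice. The 9 genes in black had no overlap between the groups, and Gfap is the single gene to the right of 0.

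The microglial receptor genes P2ry12, Csf1r and Cx3cr1 had the largest log2 reductions of the 20 genes. P2ry12 measured 426, 681, 366, 450 and 443 normalised counts in the 5 vehicle mice and 14.9 to 78.5 in the 7 PLX5622 mice, with a median of 36.9. The lowest vehicle mouse was thus well above the highest PLX5622 mouse. The mean was 473 ± 121 (SD, n = 5) on vehicle and 37.2 ± 24.0 (SD, n = 7) on PLX5622, 7.86% of vehicle, a log2 fold change of -3.80 ± 0.28 (SE) with a limma adjusted p of 1.3e-15. Csf1r, the receptor that PLX5622 inhibits, measured 194, 191, 360, 277 and 222 on vehicle and 5.78 to 56.3 on PLX5622, with a median of 19.2. Its groups did not overlap either, and its log2 fold change was -3.28 ± 0.39 (SE), with a limma adjusted p of 1.1e-08. Cx3cr1 measured 197, 184, 221, 149 and 164 on vehicle and 9.08 to 51.2 on PLX5622, with a median of 27.6. Every PLX5622 mouse had less than the lowest vehicle mouse, and the log2 fold change was -2.95 ± 0.36 (SE; limma adjusted p = 1.1e-08).

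Tmem119, a surface protein used to tell microglia from other macrophages, varied little between mice. It measured 73.3, 82.9, 83.4, 66.6 and 67.6 on vehicle and 10.7 to 27.0 on PLX5622, with a median of 20.3. The highest PLX5622 value was under the lowest vehicle value, and the highest exceeded the lowest by only 2.52 times within the PLX5622 group. Its log2 fold change was -1.89 ± 0.19 (SE; limma adjusted p = 8.3e-11). Cd33, a sialic acid-binding receptor of myeloid cells, had a log2 fold change of -1.59 without overlap (limma adjusted p = 0.00011), and Itgam had a log2 fold change of -2.57 with values of 149 to 330 on vehicle and 4.13 to 89.6 on PLX5622. For P2ry12, Csf1r, Cx3cr1 and Tmem119 the difference held within every cartridge and RNA extraction batch that had both diets, with log2 values from -4.80 to -2.71, -4.04 to -2.27, -3.88 to -1.73 and -2.48 to -1.57. In bulk tissue, fewer microglia and less of these RNAs per microglial cell cannot be told apart.

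**Figure D2:**
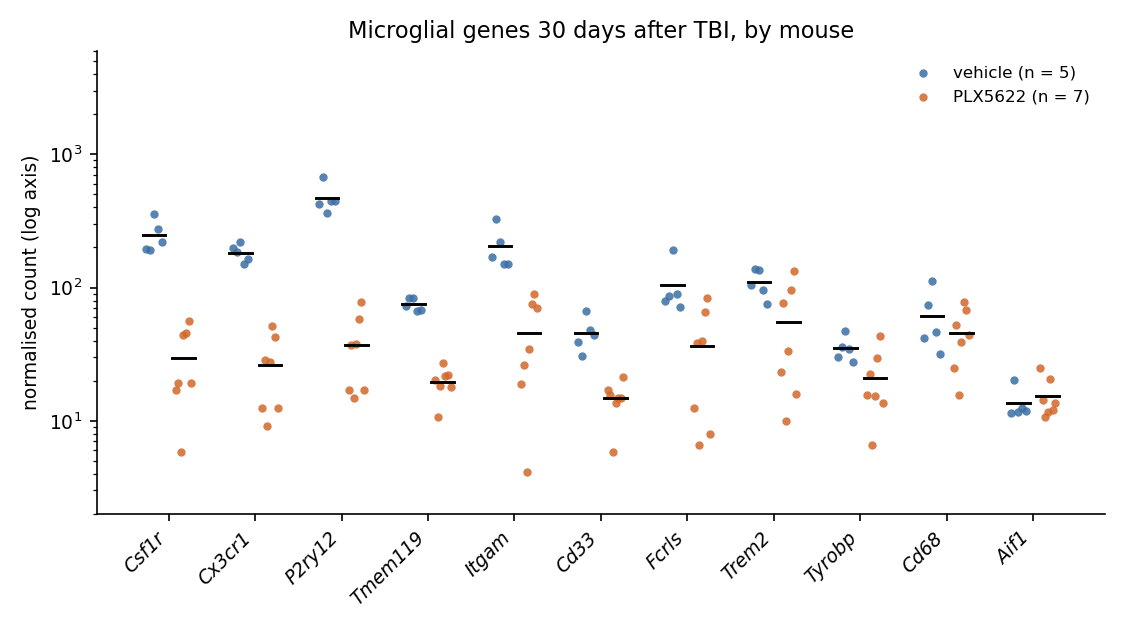
Normalised count on a log axis for 11 microglial genes 30 days after TBI, with a point for each mouse (blue, 5 vehicle; orange, 7 PLX5622) and a black line at the mean. Csf1r, Cx3cr1, P2ry12, Tmem119, Itgam and Cd33 do not overlap, whereas Trem2, Tyrobp, Cd68 and Aif1 do.

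Not every microglial gene passed the test, although 14 of the 15 measured on the list had a negative log2 fold change. For 13 of them the unadjusted limma p was below 0.05. Among all 799 genes, 53 had a negative log2 fold change with an unadjusted limma p below 0.05. Of 15 measured genes on the microglia list 11 were called lower, none higher, and the list's median log2 fold change was -1.89 against -0.10 for all genes. The 4 that did not pass were Spi1, Tyrobp, Irf8 and Aif1. Spi1 encodes PU.1, the transcription factor that macrophages need to form, and measured 16.9 to 38.9 on vehicle and 3.30 to 33.8 on PLX5622 (log2 fold change -1.12, adjusted p = 0.098, but 0.0448 without vehicle mouse 728 and 0.018 without PLX5622 mouse 733). Tyrobp encodes the adaptor protein that TREM2 signals through and had a log2 fold change of -0.86 (adjusted p = 0.37). Aif1, which encodes the widely used microglial stain IBA1, was near the low end of the panel in both groups, at 13.6 ± 3.78 (SD, n = 5) on vehicle and 15.4 ± 5.32 (SD, n = 7) on PLX5622. Cd68, a lysosomal protein of phagocytes, measured 31.8 to 113 on vehicle and 15.7 to 77.3 on PLX5622, a range that overlaps widely (log2 fold change -0.41, adjusted p = 0.836). Within cartridge 3 the differences of Cd68 and Tyrobp were positive, at 0.90 and 0.20 on the log2 scale.

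The C1q genes were lower on PLX5622 as a group but differed widely from mouse to mouse. C1qa, C1qb and C1qc encode the 3 chains of the C1q molecule. C1qb measured 519, 793, 817, 596 and 452 normalised counts in vehicle mice 684, 707, 716, 722 and 728. In PLX5622 mice 685, 700, 708, 715, 721, 727 and 733 it measured 71.8, 219, 9.08, 199, 318, 457 and 72.2. Mouse 727 was slightly above the lowest vehicle mouse, the other 6 were below all 5, and mouse 708 was far below the rest. C1qa measured 119, 159, 466.5, 213 and 161 on vehicle and 10.9, 54.8, 5.78, 104, 115, 184 and 15.8 on PLX5622, in the same order of mice. C1qc measured 206, 279, 648, 305 and 262 on vehicle and 17.2, 98.9, 1.65, 158, 190, 279 and 16.9 on PLX5622. For all 3 chains mice 685, 708 and 733 held the 3 lowest values and mouse 727 the highest, and only mouse 727 reached into the vehicle range.

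The log2 fold changes were -2.26 ± 0.54 for C1qa, -2.30 ± 0.58 for C1qb and -2.63 ± 0.64 (SE) for C1qc, with limma adjusted p of 0.0064, 0.012 and 0.00747. Group means on PLX5622 were 31.3%, 30.3% and 32.0% of vehicle. The highest PLX5622 mouse exceeded the lowest by 31.8 times for C1qa, 50.3 times for C1qb and 169 times for C1qc, where the vehicle mice spanned 3.91, 1.81 and 3.15 times. The lowest was mouse 708 each time, at 5.78, 9.08 and 1.65 normalised counts. In that mouse 1 barcode was worth 0.826 normalised counts, so these spans rest on few barcodes of 1 mouse. Wider spread on PLX5622 was common among the reduced genes: the SD of log2 values was larger on PLX5622 than on vehicle for 19 of the 20 called lower and for 287 of all 799 genes. Within cartridge 3, which held 2 mice of each diet (PLX5622 mice 721 and 727), the differences were -0.35, -0.44 and -0.30 on the log2 scale, against -4.10 to -2.03 in the 3 other cartridges with both diets. In a fit of the 12 mice alone the adjusted p values were 0.149, 0.264 and 0.386, DESeq2 gave 0.111 for C1qc, and without vehicle mouse 707 or PLX5622 mouse 708 C1qb had 0.0947 or 0.0678.

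The promoters of C1qb and C1qc are shown because these neighbouring genes moved together, and that of Fcrls because this microglial gene was lowest in the same 3 PLX5622 mice. Each runs from 250 bases before to 50 bases after the gene start, on the gene's strand, as RefSeq gives it on GRCm38.p6. The capitals mark the core of the binding site of PU.1 and its relatives (GAGGAA, or TTCCTC where it lies on the other strand).
C1qb, chr4:136886151-136886450, minus strand: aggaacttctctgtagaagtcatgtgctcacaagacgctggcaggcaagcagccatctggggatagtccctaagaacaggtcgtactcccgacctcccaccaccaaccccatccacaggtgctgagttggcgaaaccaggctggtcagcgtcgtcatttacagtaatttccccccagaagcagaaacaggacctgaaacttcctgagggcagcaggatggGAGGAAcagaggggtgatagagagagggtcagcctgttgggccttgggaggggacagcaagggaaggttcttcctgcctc
C1qc, chr4:136892865-136893164, minus strand: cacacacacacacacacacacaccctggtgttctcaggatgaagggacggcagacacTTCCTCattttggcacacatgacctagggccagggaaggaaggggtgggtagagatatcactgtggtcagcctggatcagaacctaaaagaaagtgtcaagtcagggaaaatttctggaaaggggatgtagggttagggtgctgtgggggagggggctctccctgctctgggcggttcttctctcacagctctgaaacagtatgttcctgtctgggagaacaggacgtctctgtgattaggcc
Fcrls, chr3:87263475-87263774, minus strand: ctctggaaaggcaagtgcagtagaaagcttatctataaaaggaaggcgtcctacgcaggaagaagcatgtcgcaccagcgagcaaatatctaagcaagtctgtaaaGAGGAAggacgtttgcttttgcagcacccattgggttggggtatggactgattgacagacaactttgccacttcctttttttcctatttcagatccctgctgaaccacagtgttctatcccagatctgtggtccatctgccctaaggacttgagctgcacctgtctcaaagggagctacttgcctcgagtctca
Searched on both strands, these letters occur in 28.3% of 32851 promoters of this length and in 29.3% of the 793 promoters of panel genes. They occur in 9 of the 15 promoters (60.0%) listed for 14 of the 20 genes called lower. The genes with a match do not include P2ry12, Csf1r or Cx3cr1, and not every called gene has a promoter listed. A match is a run of letters and does not show that a factor binds there.

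**Figure D3:**
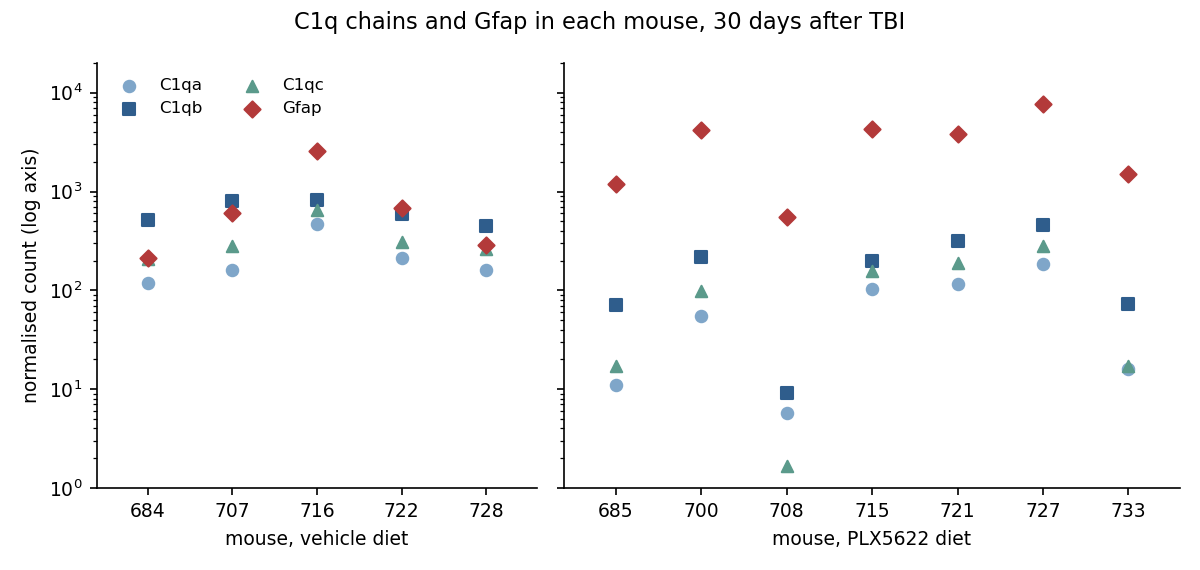
Normalised count on a log axis of C1qa, C1qb, C1qc and Gfap in each mouse 30 days after TBI, vehicle mice on the left and PLX5622 mice on the right, labelled by mouse number. On PLX5622 mice 685, 708 and 733 are lowest for all 4 genes and mouse 727 is highest.

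Other genes of phagocytes and immune signalling were lower too. Fcrls, an Fc receptor-like scavenger molecule of microglia, measured 79.1, 86.2, 193, 88.8 and 71.6 on vehicle and 12.5, 38.1, 6.61, 39.8, 65.9, 83.1 and 7.90 on PLX5622, so that 1 PLX5622 mouse reached the vehicle range. Its log2 fold change of -1.88 (limma adjusted p = 0.0218) did not pass without vehicle mouse 716 (0.134) or 707 (0.0847), without PLX5622 mouse 685, 708 or 733 (0.0799, 0.0828 and 0.0843), or in the 12 mice alone (0.181). Trem2, a lipid-sensing receptor of phagocytes, measured 105, 139, 136, 95.9 and 75.6 on vehicle and 23.4, 76.2, 9.91, 33.4, 96.6, 133 and 15.8 on PLX5622. Mice 700, 721 and 727 lay within the vehicle range and the other 4 below it, and within cartridge 3 the log2 difference had the opposite sign, at 0.41. The Trem2 call (log2 fold change -1.35, limma adjusted p = 0.0401) was lost with edgeR (0.223), with DESeq2 (0.192), on centring (0.0631), without a variance trend (0.0531), in the 12 mice alone (0.57), and without any of vehicle mice 684, 707, 716 or 722 or PLX5622 mice 685, 708, 715 or 733 (0.0592 to 0.20).

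Cd86, a costimulatory molecule of antigen-presenting cells, did not overlap between the groups, with a mean of 26.4 ± 7.75 (SD, n = 5) against 8.43 ± 2.83 (SD, n = 7) and a log2 fold change of -1.47 (limma adjusted p = 0.00747, and 0.0686 without vehicle mouse 707). Ncf1, a subunit of the phagocyte oxidase, had a log2 fold change of -1.41 (limma adjusted p = 0.00378, 0.0686 without vehicle mouse 707 and 0.0556 in the 12 mice alone). Stab1, a scavenger receptor, was at 26.8 to 69.2 on vehicle and 14.0 to 22.2 on PLX5622, without overlap (log2 fold change -1.09, limma adjusted p = 0.00103). Il6ra, the interleukin 6 receptor alpha chain, had a log2 fold change of -0.96 (limma adjusted p = 0.0321), and the call was lost without a covariate (0.245), on centring (0.067), with edgeR (0.0942) or DESeq2 (0.0579), in the 12 mice alone (0.0577) and without any of PLX5622 mice 700, 708 or 721 or vehicle mice 707, 716 or 722 (0.0638 to 0.161). Ang, a secreted ribonuclease with close relatives in the mouse that its probe may not tell apart, had a log2 fold change of -1.16 (limma adjusted p = 0.012, 0.128 without vehicle mouse 707 and 0.273 in the 12 mice alone). Of the 20 genes called lower, 7 had a PLX5622 mean under 20 normalised counts, where the log2(value + 1) scale understates a fold change.

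TGF-beta signalling keeps microglia in their mature state. Of the 5 measured genes on the list that joins this axis with CSF1 and its receptor, Csf1r, Tgfb1 and Tgfbr1 (3 genes) were called lower. This is 60.0% of the list, beside 2.5% of all 799 genes, and Csf1r is also counted on the microglia list. Tgfb1, the ligand, measured 112, 122, 146, 99.5 and 69.6 on vehicle and 26.4 to 72.2 on PLX5622, with mouse 733 alone above the lowest vehicle mouse. Its log2 fold change was -1.23 ± 0.24 (SE; limma adjusted p = 0.00051). Tgfbr1, a receptor subunit, was at 90.5 to 137 on vehicle and 43.7 to 74.8 on PLX5622, without overlap (log2 fold change -0.96 ± 0.16 (SE); limma adjusted p = 3.9e-05). Tgfbr2, the other receptor subunit, had a log2 fold change of -0.67 with an adjusted p of 0.0535 and did not pass. It did pass without a covariate (0.0488), with extraction batch (0.0407) or both batches (0.028), with genes of low mean left out (0.0477), and without PLX5622 mouse 715 (0.0321) or 727 (0.0418) or vehicle mouse 728 (0.0164). Csf1, a ligand of the CSF1 receptor, stood at 209 ± 67.8 (SD, n = 5) on vehicle and 247 ± 59.2 (SD, n = 7) on PLX5622 and did not pass (log2 fold change 0.25, adjusted p = 0.836).

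Gfap was the single gene called higher, and it varied widely in both groups. It measured 213, 610, 2574, 685 and 285 normalised counts in vehicle mice 684, 707, 716, 722 and 728 and 1189, 4151, 547, 4259, 3825, 7719 and 1497 in PLX5622 mice 685, 700, 708, 715, 721, 727 and 733. Vehicle mouse 716 was above 3 of the PLX5622 mice, and PLX5622 mouse 708 was below 3 of the vehicle mice. Means were 874 ± 972 (SD, n = 5) and 3312 ± 2474 (SD, n = 7), a ratio of 3.79, and the log2 fold change was 2.15 ± 0.60 (SE) with a limma adjusted p of 0.0321. The call did not hold with extraction batch in place of cartridge (adjusted p = 0.0538), with both batches (0.0578), without a variance trend (0.0509), with a robust one (0.0638) or with edgeR (0.0574). It also missed the threshold without any of vehicle mice 684, 707, 722 and 728 or PLX5622 mice 700, 715, 721 and 727 (0.0566 to 0.189), and within extraction batch 3 the difference was -0.03 on the log2 scale. The 3 PLX5622 mice with the least C1qa, C1qb and C1qc, numbers 685, 708 and 733, were also those with the least Gfap, and mouse 727 had the most of all 4. Vehicle mouse 716 was likewise highest of its group for Gfap, C1qa, C1qb and C1qc. The total counts of mice 685, 708 and 733 were 342217, 611292 and 442137, and those of the other 4 PLX5622 mice 471930 to 858965. They were on cartridges 1, 2 and 5 and in extraction batches 1, 2 and 3, so that no 1 batch holds all 3. Whether depth or batch has a part in this pattern was not tested.

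The Gfap promoter is shown because Gfap was the only gene called higher. Its capitals mark a match to the element bound by STAT factors (TTCNNNGAA), which reads the same on both strands and occurs in 8.3% of the 32851 promoters.
Gfap, chr11:102897151-102897450, minus strand: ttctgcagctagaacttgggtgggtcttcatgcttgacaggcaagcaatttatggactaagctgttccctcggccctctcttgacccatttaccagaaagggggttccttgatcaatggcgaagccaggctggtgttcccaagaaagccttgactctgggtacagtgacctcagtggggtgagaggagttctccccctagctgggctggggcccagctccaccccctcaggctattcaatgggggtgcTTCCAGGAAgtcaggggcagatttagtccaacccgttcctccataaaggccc
Its other strand also holds GAGGAA, which reads TTCCTC on the strand printed here.

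Other astrocyte genes were not called. Of 7 measured astrocyte markers, Gfap was the 1 called, 6 had a positive log2 fold change, and the list's median was 0.24 against -0.10 for all genes. Aqp4, the water channel of astrocyte endfeet, measured 295 to 549 on vehicle and 272 to 1495 on PLX5622 (log2 fold change 0.58, adjusted p = 0.553), and was highest in PLX5622 mice 727, 715 and 721. Aldh1l1, a folate enzyme used as an astrocyte marker, had a log2 fold change of 0.38 (adjusted p = 0.582). Among 8 genes of reactive astrocytes only Gfap was called. Cd44, a hyaluronan receptor, measured 17.3, 27.1, 62.7, 24.9 and 21.9 on vehicle and 53.1, 57.2, 23.9, 73.3, 98.9, 119 and 85.8 on PLX5622. All but mouse 708 were above the vehicle median and 4 of 7 above the highest vehicle mouse, yet the difference did not pass (log2 fold change 1.32, adjusted p = 0.192). Tspo, the mitochondrial protein used for imaging of reactive glia, was at 22.99 ± 4.53 (SD, n = 5) and 28.9 ± 3.66 (SD, n = 7) and did not pass either (adjusted p = 0.759).

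No gene of the lists for neurons, synapses, myelin or vessels was called. This covers 7 pan-neuronal genes, 16 of synaptic vesicles, 21 of glutamate signalling, 16 of GABA and interneurons, 20 regulated by activity, 14 of oligodendrocytes and myelin, 2 of their precursors and 11 of endothelium and pericytes, with list medians between -0.14 and 0.14. Nefl, the light chain of neuronal neurofilament, stood at 5824 ± 1312 (SD, n = 5) on vehicle and 5404 ± 413 (SD, n = 7) on PLX5622. Trf, the iron carrier transferrin made by oligodendrocytes, had a log2 fold change of 0.67 with an adjusted p of 0.387, was higher on PLX5622 within each of the 4 cartridges and 3 extraction batches with both diets, and passed in the 12 mice alone (0.028). Of 14 genes of phagocytosis and the lysosome 2 were called lower (Cd33 and Trem2), of 10 of innate sensing 1 (Ncf1), of 33 chemokine, cytokine and TNF genes 2 (1 of them Il6ra), and of 9 complement genes 4 (the C1q chains and Itgam). These are 14.3%, 10.0%, 6.06% and 44.4% of their lists, beside 2.5% of all 799 genes called lower. The lists share genes: the 4 called complement genes and Trem2 are also on the microglia list and are counted there too. Within cartridge 3 the median difference of the complement list was 0.31 on the log2 scale, of the opposite sign to its median of -1.08. The lists for interferon response (6 genes), growth factors (17), extracellular matrix (17), apoptosis (20) and oxidative stress (10) had no call.

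Markers of macrophages and leukocytes other than microglia were near the low end of the panel. None of their 6 measured genes (Mrc1, Cd163, Ccr2, Ly6g, Cd4 and Cd8a) was called. Their summed level was 50.7 to 69.3 normalised counts on vehicle and 36.3 to 146 on PLX5622, where mouse 733 held the highest value and the other 6 mice were between 36.3 and 51.5. Mrc1, the mannose receptor of border macrophages, was at 7.30 ± 1.91 (SD, n = 5) on vehicle and 3.84 ± 1.24 (SD, n = 7) on PLX5622 (adjusted p = 0.255). For comparison, the 15 microglial genes summed to 2851 to 4498 on vehicle and to 437, 1064, 239, 972, 1578, 2054 and 476 in PLX5622 mice 685, 700, 708, 715, 721, 727 and 733. Part of these 15 genes is also made by border macrophages, and the part of such cells in the differences was not tested.

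**Figure D4:**
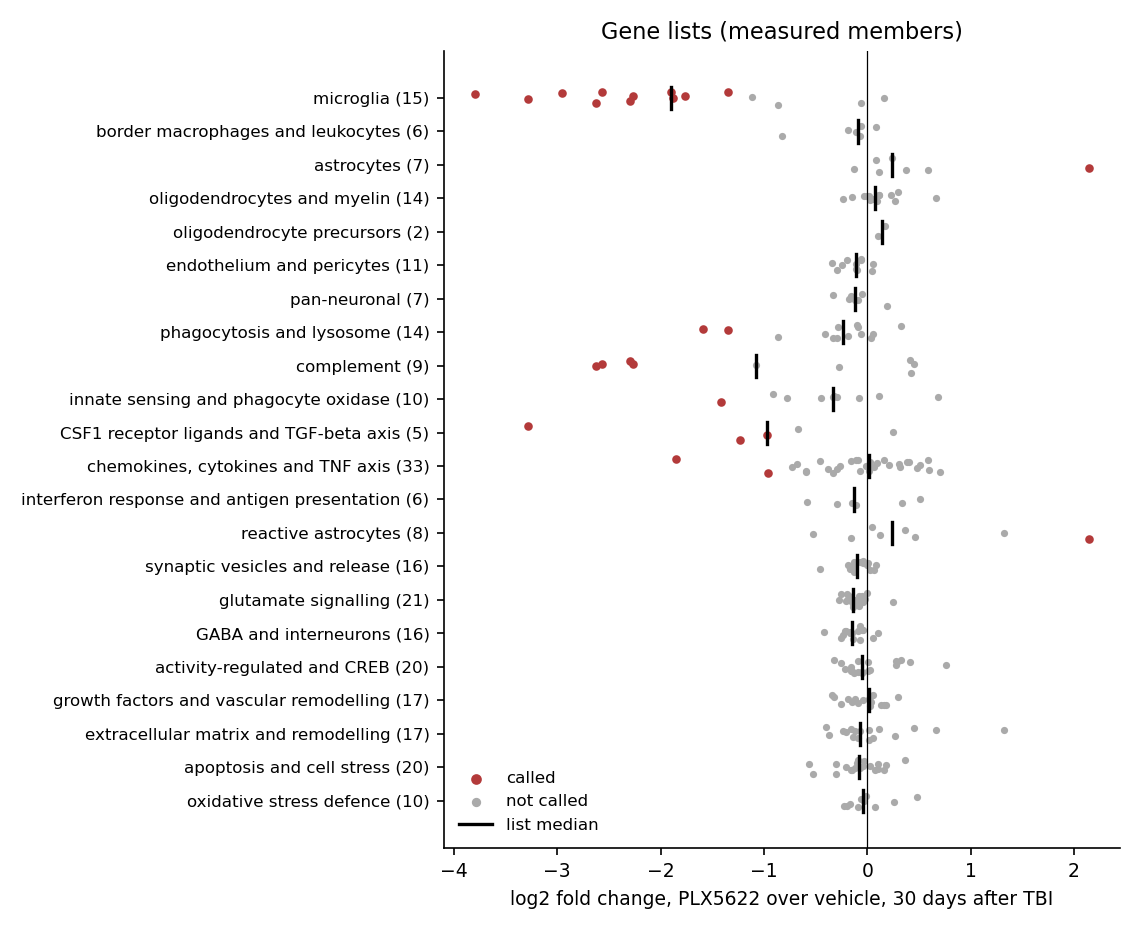
Log2 fold change of PLX5622 over vehicle 30 days after TBI (x axis) for the measured genes of 22 lists (number of genes in brackets, red where called), with a black line at the list median. The microglia, complement and CSF1 and TGF-beta lists lie to the left, with medians of -1.89, -1.08 and -0.96, and Gfap lies alone at the right of both astrocyte lists. A gene on several lists is drawn in each: the 4 called complement genes and Csf1r are also on the microglia list.

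Whether the diet effect at 30 days differs from the effect in other mice was tested as a difference between diet effects, which share no mice. The sources used here do not say how long the naive mice ate their diet, so time on the diet may differ along with injury. All 20 genes called lower at 30 days were among the 27 called lower in naive mice and the 33 at 7 days, and 18 of them were among the 32 at 1 day. Of these 20, the diet effect was nearer 0 at 30 days than in naive mice for 19, than at 1 day for 16 and than at 7 days for 17. The 20 genes were measured in the same mice and are not separate observations. Such counts over all 799 genes are not reported here. The median effect over all 799 genes was -0.14 in naive mice, -0.01 at 1 day, 0.02 at 7 days and -0.10 at 30 days. Against naive mice 3 genes (0.375%) passed the test of a difference, C1qa, C1qb and Cx3cr1. Their effects were smaller at 30 days by 3.05 ± 0.74, 3.29 ± 0.81 and 2.18 ± 0.49 (SE) on the log2 scale (limma adjusted p = 0.043, 0.043 and 0.0398). Those of C1qc and Itgam were smaller by 2.47 ± 0.88 and 2.14 ± 0.67 (SE) but did not pass (limma adjusted p = 0.768 and 0.36). Against 1 day 4 genes (0.501%) passed with a smaller effect at 30 days. These were C1qa, C1qb and Cx3cr1, by 3.14, 3.49 and 2.05 (adjusted p = 0.0249 each), and Ccl12, a monocyte-attracting chemokine, by 3.74 (adjusted p = 0.0163). For C1qb the diet effect was -5.59 in naive mice, -5.79 at 1 day, -3.86 at 7 days and -2.30 at 30 days on the log2 scale. The PLX5622 mice had 3.82 to 28.5 normalised counts of C1qb when naive, 3.41 to 48.2 at 1 day, 11.4 to 181 at 7 days and 9.08 to 457 at 30 days, against 406 to 529, 660 to 1100.2, 364 to 1698 and 452 to 817 on vehicle. The ranges on PLX5622 thus share their low end, and higher values occur at 7 and 30 days.

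The P2ry12 effect, at -4.82, -3.79, -4.04 and -3.80 for naive mice, 1, 7 and 30 days, did not pass the test of a difference (adjusted p = 0.768 against naive and 0.953 against 7 days), nor did that of Csf1r (0.994 against naive). Against 7 days no gene passed with limma, and edgeR and DESeq2 also called 0. The unadjusted limma p was below 0.05 for 32 of the 799 genes, no more than that threshold passes by chance. At 30 days Ccl12 itself was not called between diets (log2 fold change -0.68, adjusted p = 0.836). Its vehicle mice held 22.8 to 204 normalised counts at 1 day and 3.98 to 12.6 at 30 days, and the PLX5622 mice at most 8.87 and 10.2. The Gfap effect was 0.29 in naive mice, 0.57 at 1 day, 1.14 at 7 days and 2.15 at 30 days, and none of its differences passed (adjusted p = 0.994, 0.716 and 0.953). The calls against naive were fragile: with 1 of the 25 mice left out the count ran from 0 to 5, and it was 0 without any 1 of 14 of them. These were 684, 700, 715, 721, 722, 727 and 728 of the 30-day groups and 695, 705, 706, 714, 731, 737 and 742 of the naive ones. The title of vehicle mouse 695 carries 7d although its injury label is naive. Against 1 day the count ran from 0 to 6, with 0 without vehicle mouse 728 of the 30-day group.

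**Figure D5:**
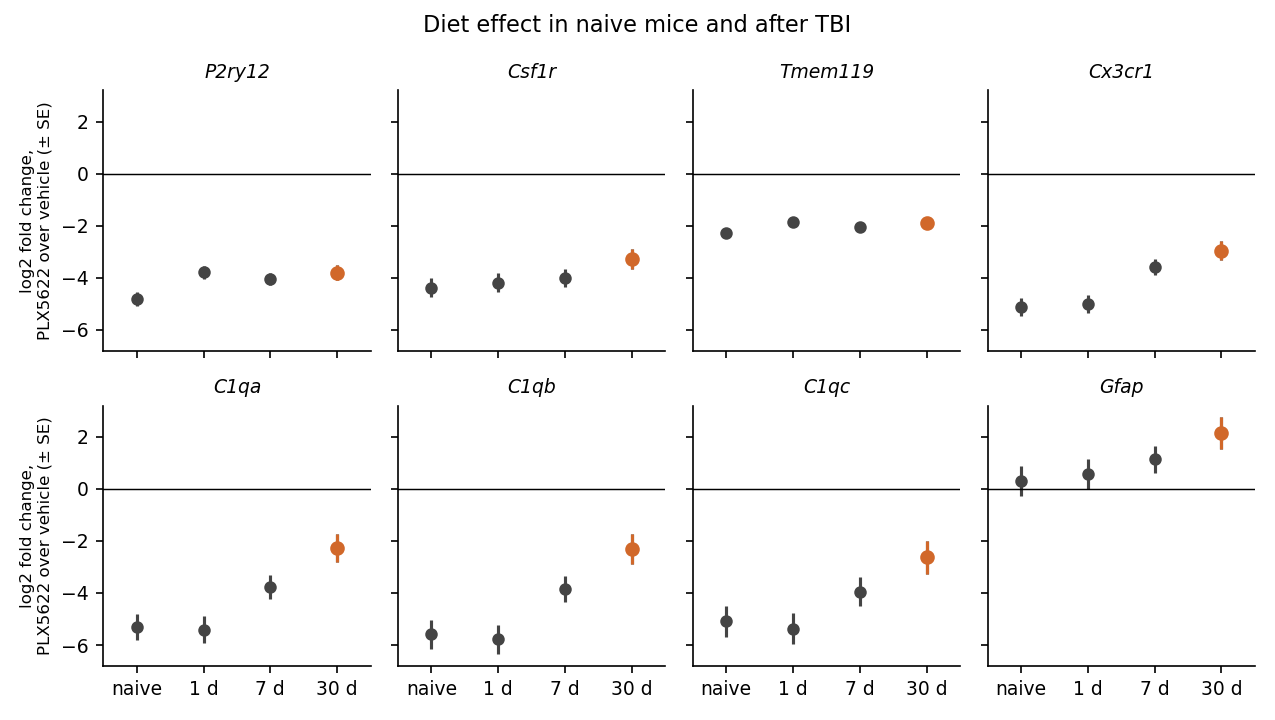
Log2 fold change of PLX5622 over vehicle (y axis, ± SE) in naive mice and 1, 7 and 30 days after TBI (30 days in orange) for 8 genes. C1qa, C1qb and Cx3cr1 are nearer to 0 at 30 days than in naive mice, by 3.05, 3.29 and 2.18, and P2ry12 and Tmem119 differ less between days.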

How the data were processed

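Each of the 55 mice gave 1 nCounter library of cortex RNA. The authors deposited a non-negative signal: each mouse's barcode counts scaled by a size factor of its own, and the submitters' processing notes name DESeq2 without a version. Pre-amplification cycles were chosen by Gapdh and Actb levels, per the labels' protocols. Neither their number nor a background step is stated in the sources used here. Dividing by the value of 1 count gave whole counts for 100% of values in all 55 columns, at a tolerance of 0.02. No mice of a 30-day group agreed within sampling noise (chi-square over its degrees of freedom at least 8.25). Total counts ran from 176038 to 1208609 over the series. All 799 symbols matched RefSeq genes, 792 by current symbol and 7 by synonym.

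The main test was limma 3.58.1 in R 4.3.3 (lmFit, then eBayes with trend), fitted to log2(value + 1) of all 55 mice with a mean for each of 8 groups and the cartridge as covariate. Tests were two-sided, and Benjamini-Hochberg adjustment ran over the 799 genes. It was tested on simulated data. Alternatives were no covariate, extraction batch, both batches, centring, leaving out genes with a mean under 20, a pseudocount of 10, eBayes without trend or robust, edgeR 4.0.16 and DESeq2 1.42.0 on the recovered counts, the compared groups alone, each mouse left out, and differences within batches. Figures were drawn with matplotlib 3.10.9. The genes named are, for the diet comparison, the 15 largest rises and falls among called genes, the 5 uncalled genes of smallest p, up to 4 genes of smallest p of each list and a set of fixed markers, and for each difference of diet effects the 10 smallest adjusted p among called genes; fewer are printed, and some results are not reported here. The mice, gene lists and tests were chosen with earlier results of these data known. Nothing in the labels says how regions were matched between the diets, and mice are taken as separate animals by their numbers.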

Additional observations from a re-analysis of the deposited data

Results flagged for a closer look

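Some single mice lay far from the rest of their group in a Dixon test, which chance passes in about 1 of 20 groups; here 7 of 96 pairs of gene and group did. Vehicle mouse 716 stood at 193.1 normalised counts of Fcrls, where the other 4 were between 71.6 and 88.8, and at 329.5 of Csf1, where the others were between 171 and 196. Vehicle mouse 707 had 20.3 of Aif1 against 11.5 to 12.4 in the others, and vehicle mouse 684 had 23.001 of Nr4a2, an immediate early transcription factor, against 105 to 172. PLX5622 mouse 708 had 5.78 of Cd33 against 13.5 to 21.4 and 4.96 of Cxcl10, an interferon-induced chemokine, against 11.4 to 20.3. PLX5622 mouse 733 had 449.1 of Mag, a myelin protein, against 964 to 1310.

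The diet effect at 30 days differed from that at another time by a test of the difference itself in 7 cases. Against naive mice the log2 differences were 3.05 for C1qa, 3.29 for C1qb and 2.18 for Cx3cr1. Against 1 day they were 3.14 for C1qa, 3.49 for C1qb, 3.74 for Ccl12 and 2.05 for Cx3cr1.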

How the results depend on the processing

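The 21 calls at 30 days ranged from 15 to 22 over 11 alternatives and from 13 to 22 with 1 mouse left out, where 13 was reached without vehicle mouse 707. Of the 21 genes, 12 stayed past the threshold under every alternative in which they were fitted. For Cd86 this was 10 of the 11 alternatives, as it was left out with the genes of low mean. Of the 12 genes, 11 also passed without any 1 mouse, among them Csf1r, Cx3cr1, P2ry12, Tmem119, Itgam, Cd33, Tgfb1, Tgfbr1 and Stab1. All 21 kept their sign in these fits. For the difference against naive mice, with 3 calls, the count was 1 without a covariate, 1 with extraction batch, 1 with a robust fit, 0 with a pseudocount of 10, 0 without a trend, and 5 with edgeR and with DESeq2; with 1 mouse left out it ran from 0 to 5. For the difference against 1 day, with 4 calls, it was 1 with both batches, 2 in the compared groups alone, 8 with edgeR and 9 with DESeq2; with 1 mouse left out it ran from 0 to 6. Against 7 days it was 0 throughout. The cause of these moves was not tested. Within single batches with both diets, the sign turned for 2 of the 21 called genes, Trem2 in cartridge 3 (0.4089) and Gfap in extraction batch 3 (-0.0276). It also turned in at least 1 batch for 16 of 27 uncalled genes, among them Cd68, Tyrobp, Csf1 and Aqp4, and for 19 of 22 list medians, among them complement in cartridge 3 (0.3059). Cd163, not called, ran from -0.3347 to 0.0708 with 1 mouse left out, and turned without vehicle mouse 707 (0.0708). Uncalled genes that passed under an alternative were Tgfbr2, Spi1, Trf, Slc11a1 and Lrrc25. Of 659 list medians under an alternative 63 moved by over 1 SD. Cartridge 5 held no vehicle mouse at 30 days, so it gives no difference. No paired analysis was possible because the mouse numbers name animals and link none across groups. Counting depth limits genes with few counts: Aif1, Mrc1 and Ccl12 had means under 20 in both groups.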
